A study of Mus musculus with 16 samples.

Results

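Gene expression in the heads of wild type mouse embryos was compared between a diet enriched in folic acid and a moderate diet. The comparison takes in every library that the labels call wild type, which is 8 of the 16 libraries in the series: 4 on the enriched diet (10 ppm folic acid) and 4 on the moderate diet (2 ppm). Both groups were wild type embryos of the F3 generation, collected at embryonic day 8.5 after 3 generations on their diet, and tissue ran from the first branchial arch to just above the otic vesicle. The other 8 libraries came from embryos homozygous for a null allele of Ift88, a gene needed to build cilia, on the same diets; they entered the model and are otherwise given only beside the wild type values. The labels name no strain, litter or dam, so embryos of a group may be littermates. The p-values and intervals speak only of how far these libraries spread. No folate level in dam or embryo is recorded in the labels.

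Folate carries single carbon units. Receptors and carriers bring it into the cell, cytosolic and mitochondrial enzymes load and exchange the carbon units, and these are spent on purines, thymidylate and the remethylation of homocysteine to methionine, which feeds the methyl donor S-adenosylmethionine. In the early embryo the pathway supports rapid cell division and closure of the neural tube, and shortage of folate or loss of some of these genes leads to neural tube defects. The tissue sampled here is the forming brain with its neural crest, arch mesenchyme and surface ectoderm at the stage when the cranial neural tube is closing.

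Total counts assigned to genes ran from 20875382 to 39744994 per library on the moderate diet and from 20760316 to 33858563 on the enriched diet. The summed level of 18 head markers lay between 1001 and 1043 CPM, which are counts scaled to a common effective library total, in all 8 libraries, and 16 of those markers had at least 10 counts in every one. Posterior trunk markers summed to 0.629 to 1.42 CPM, with Hoxa9 and Hoxb9 at 0 counts throughout. Erythroid markers summed to 2404 to 6359 CPM on the moderate diet and 1473 to 3740 CPM on the enriched diet, with Hba-a1 alone at 0. In bulk tissue, fewer cells of a type and less RNA per cell cannot be told apart. Ift88 was measured at 19.9, 9.30, 20.9 and 20.7 CPM in moderate wild type libraries 1 to 4 and at 18.98, 20.7, 17.9 and 20.8 CPM in enriched libraries 1 to 4. The library labelled moderate wild type 2 thus stood at 46.5% of the mean of the other 7. Its Y-linked counts also go against its label of female. By label, 1 of 4 moderate and 3 of 4 enriched embryos were male; by counts, 2 of 4 and 3 of 4.

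No gene differed between the diets past the threshold. Of 14514 genes tested with edgeR's quasi-likelihood test on all 16 libraries, 0 had a Benjamini-Hochberg adjusted p under 0.05 (0%), and the smallest adjusted p was 0.967. At an unadjusted p under 0.05 the test gave 354 genes, 2.44% of those tested: 169 with a higher estimate on the enriched diet (1.16%) and 185 with a lower one (1.27%). Limma-voom also called 0 genes, with 337 at an unadjusted p under 0.05. DESeq2's Wald test called 1 gene, Syt7, at an adjusted p of 0.0418. In the mutants the same diet comparison called 0 genes (0%) with edgeR, with 1565 at an unadjusted p under 0.05. The interaction, which tests whether the diet effect differs between wild type and mutant heads, also called 0 genes (0%) with edgeR, with 1401 at an unadjusted p under 0.05, and 0 with limma-voom and with DESeq2.

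Given the spread among these libraries, the intervals of the diet estimate were narrow for most genes. Genes are called bounded where the interval lies within the stated fold. Differences between litters or dams, which the labels do not name, are not allowed for in these intervals. The 95% interval of the fold change lay wholly within 2-fold, that is between -1 and 1 on the log2 scale, for 12910 genes (88.9%), and within 1.5-fold for 10512 genes (72.4%). On the log2 scale the median interval reached 0.27 to each side of its estimate, or 1.204-fold. Precision followed abundance. Among the 2610 genes with a mean above 100 CPM, 99.8% were bounded within 2-fold and 96.5% within 1.5-fold. Of the 6840 genes between 10 and 100 CPM, 99.4% were bounded within 2-fold, and of the 3377 between 1 and 10 CPM, 89.0%. Below 1 CPM only 29.9% of 1687 genes were bounded within 2-fold, so for most such weakly expressed genes a change beyond 2-fold was not excluded. The estimates themselves were small: 95% of them were under 0.41 in size on the log2 scale, and 57 genes exceeded 2-fold, 47 of them below 1 CPM.

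The 2 diets did not form separate groups of libraries. The typical distance between a pair of libraries, taken as the median absolute difference of log2 CPM over 12827 genes with a mean of at least 1 CPM, was 0.108 within the moderate diet, 0.168 within the enriched diet and 0.148 between diets (medians of 6, 6 and 16 pairs). The median pair of enriched libraries was thus farther apart than the median pair across diets. The first principal component of the 500 most variable genes held 34.3% of the variance and separated libraries with Xist counts from those with Y-linked counts. All 4 enriched libraries lay above all 4 moderate libraries for 213 genes (1.47% of those tested) and below them for 153 genes (1.05%). Without moderate library 2, which leaves fewer libraries to separate, these numbers were 415 and 276.

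The enriched group was divided by transcript length. The median deviation of long genes (exons of at least 7052 bases in all) minus that of short genes (at most 2935 bases) was 0.11, 0.04, 0.16 and 0.03 on the log2 scale in moderate libraries 1 to 4. In enriched libraries 1 to 4 it was -0.30, 0.09, -0.22 and 0.08. Enriched libraries 1 and 3 were therefore low in long transcripts, whereas enriched libraries 2 and 4 were within the range of the moderate diet. Over 12393 genes the log2 fold change fell with exon length (Spearman's rho -0.512 across genes, which are not independent and share the same 8 libraries). Genes with an unadjusted p under 0.05 had a median exon length of 2311 bases where the estimate was higher and 8149 bases where it was lower, against 4442.5 bases for all genes tested. With a length correction of each library, chosen after seeing the data, edgeR again called 0 genes, with 254 at an unadjusted p under 0.05 in place of 354. What set these 2 libraries apart was not tested.

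Folate receptors and carriers showed no change that passed the test. Of 15 listed genes 12 had enough counts, and 11 of these were bounded within 2-fold. Folr1, the receptor that takes up folate by endocytosis in neuroepithelium, stood at 5.24, 5.08, 4.30 and 8.53 CPM on the moderate diet and 5.37, 4.34, 7.71 and 3.42 CPM on the enriched diet. The groups overlapped, and the interval ran from 0.646-fold to 1.45-fold. Folr2 and Izumo1r, other members of the receptor family, reached at most 12 and 5 counts in any wild type library and were not tested. Slc19a1, the reduced folate carrier, averaged 46.2 ± 2.45 CPM (SD, n = 4) on the moderate diet and 46.9 ± 4.84 CPM on the enriched diet, with an interval of 0.889-fold to 1.21-fold. For Slc46a1, the proton-coupled folate transporter, the interval was 0.945-fold to 1.43-fold, and for Slc25a32, which carries folate into mitochondria, 0.812-fold to 1.17-fold. Fpgs and Ggh, which add and remove the glutamate tail that retains folate in the cell, had intervals of 0.941-fold to 1.21-fold and 0.962-fold to 1.48-fold.

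Lrp2 (megalin), an endocytic receptor that binds folate-receptor and folate-binding protein complexes and whose loss disturbs forebrain and neural tube formation, had the lowest unadjusted p of that list. It stood at 268.8, 189.3, 224 and 188.8 CPM on the moderate diet and 129.1, 226.1, 164.2 and 139 CPM on the enriched diet. Enriched library 2 lay above 3 of the 4 moderate libraries, so the groups overlapped. The fold change was 0.789, with an interval of 0.623 to 0.999 and an unadjusted p of 0.0446 (adjusted p 0.967, edgeR), or 0.199 unadjusted with the length correction. Its partner Cubn (cubilin) was measured at 2.20 to 3.49 CPM over the 8 libraries. Its interval of 0.238-fold to 2.12-fold left a 2-fold change in either direction possible.

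Of the cytosolic genes of the folate cycle, 9 of 10 were bounded within 2-fold and 8 within 1.5-fold. The exception at 2-fold was Aldh1l1, at a mean of 0.847 CPM, with an interval of 0.746-fold to 2.33-fold. Estimates were higher for 8 and lower for 2 of the 10 genes tested, with a median of 0.07 on the log2 scale against 0.0025 for all genes, but -0.05 without enriched libraries 1 and 3. Tyms, which makes thymidylate, had an interval of 0.928-fold to 1.26-fold. For Mthfd1, the trifunctional enzyme that interconverts formyl, methenyl and methylene folates, it was 0.890-fold to 1.10-fold, and for Shmt1, which moves a carbon from serine to folate, 0.938-fold to 1.19-fold. The purine enzymes Atic and Gart, which use formyl folate, had intervals of 0.881-fold to 1.23-fold and 0.881-fold to 1.26-fold.

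Mthfs, which returns 5-formyl folate to the cycle, was higher in estimate by 0.46 ± 0.20 (log2, SE), with 1.54, 1.21, 1.37 and 1.44 CPM on the moderate diet and 1.92, 1.93, 2.08 and 1.53 CPM on the enriched diet. Enriched library 4 fell among the moderate libraries. The unadjusted p was 0.0334 and the adjusted p 0.967 (edgeR).

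In mitochondria, none of the 11 tested genes of one-carbon metabolism reached an unadjusted p under 0.05. Shmt2 and Mthfd2, which produce most one-carbon units in dividing embryonic cells, had intervals of 0.884-fold to 1.26-fold and 0.794-fold to 1.28-fold. Mthfd1l, which releases formate to the cytosol and is needed for neural tube closure, had one of 0.880-fold to 1.17-fold. Gldc, the glycine decarboxylase of the glycine cleavage system, averaged 172.3 ± 4.89 CPM on the moderate and 157.8 ± 14.9 CPM on the enriched diet (SD, n = 4), with an interval of 0.824-fold to 1.16-fold. The widest intervals belonged to Sardh and Aldh1l2, whose upper or lower limits lay beyond 2-fold.

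The methionine cycle and the cobalamin genes that serve it gave 12 higher and 7 lower estimates among 19 genes tested. Mtr, the methionine synthase that joins the folate and methionine cycles, stood at 68.9, 67.7, 63.3 and 65.0 CPM on the moderate diet and 52.0, 64.2, 54.8 and 58.8 CPM on the enriched diet. Only enriched library 2 fell within the moderate range. The fold change was 0.893, with an interval of 0.803 to 0.993 and an unadjusted p of 0.0375 (adjusted p 0.967, edgeR), or 0.203 unadjusted with the length correction. Its reactivating partner Mtrr had an interval of 0.917-fold to 1.202-fold, Mat2a, which makes S-adenosylmethionine, one of 0.699-fold to 1.44-fold, and Ahcy, which clears S-adenosylhomocysteine, one of 0.907-fold to 1.38-fold. Bhmt, which remethylates homocysteine from betaine in liver, reached at most 2 counts in a library, and Mat1a was at 0 in all 8.

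Over the 4 lists together, 52 of 62 genes were tested and their median log2 fold change was 0.02. Intervals lay within 2-fold for 47 genes (90.4%, against 88.9% of all genes) and within 1.5-fold for 44 (84.6%, against 72.4%). At an unadjusted p under 0.05 there were 1 higher (Mthfs) and 2 lower (Lrp2 and Mtr), where 1.16% and 1.27% of all genes were. For none of the 52 were the 2 diets free of overlap, against 1.47% of all genes higher and 1.05% lower. The labelled sexes differ between the diets, and the counts contradict the label of moderate wild type library 2 and of 2 moderate mutant libraries. Without these 3, edgeR called 0 genes in wild type, with 261 at an unadjusted p under 0.05 in place of 354, and 0 in the interaction, with 306 in place of 1401. With sex read from counts in place of the labels, edgeR called 0 genes in wild type and 0 in the interaction. In that fit 372 and 991 genes had an unadjusted p under 0.05, and 13074 were bounded within 2-fold in wild type, against 12910. The fitted estimates allow for labelled sex and can therefore differ from the ratio of group means: among genes of at least 1 CPM the sign differed for 2144 (16.7%), but in only 34 of these was the fitted log2 change over 0.25 in size.

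**Figure D1:**
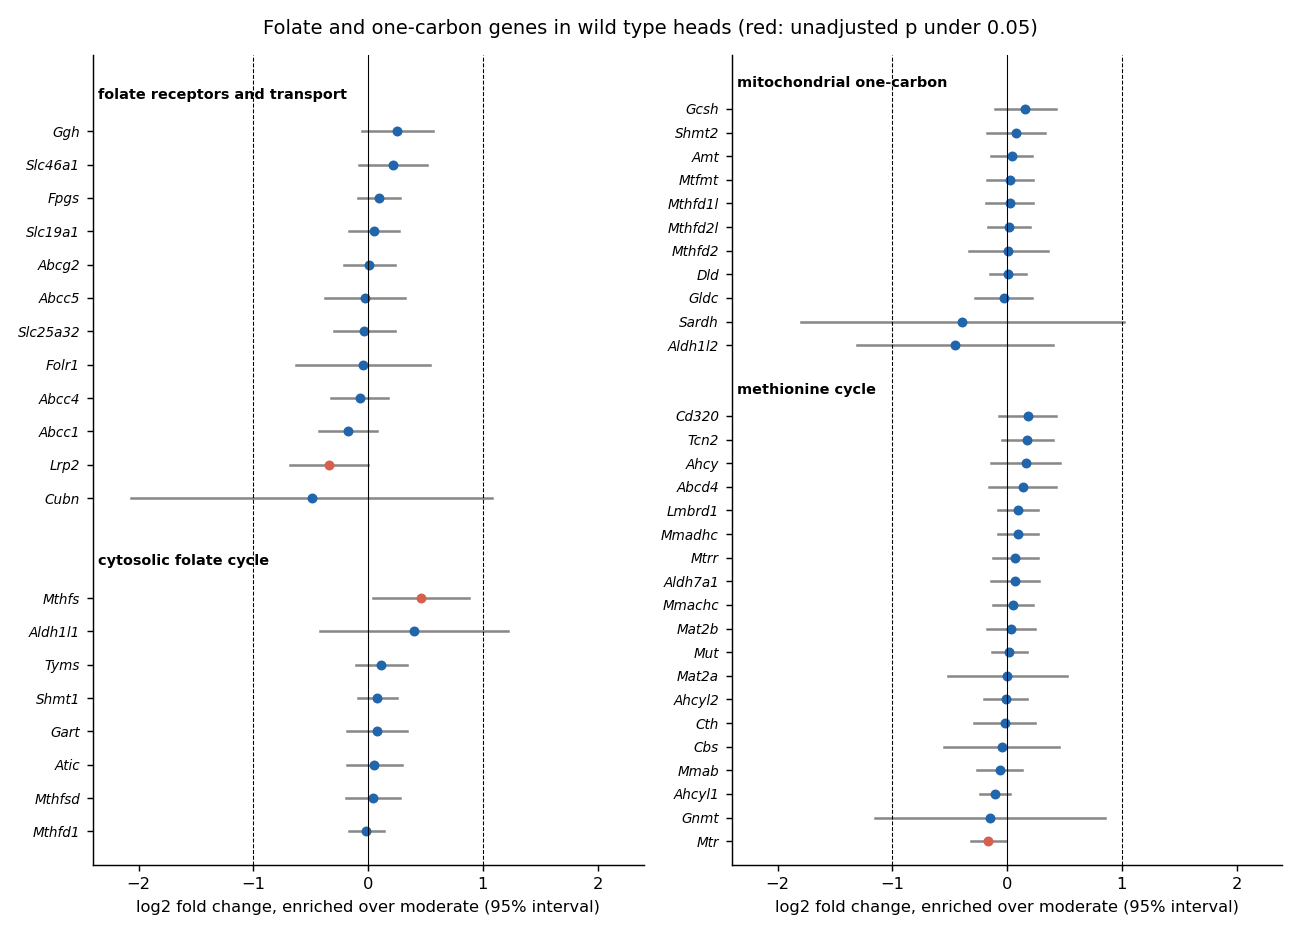
Log2 fold change of the enriched over the moderate diet (points) with 95% intervals (lines) for 50 of the 52 tested genes of folate transport, the cytosolic and mitochondrial one-carbon enzymes and the methionine cycle in wild type heads. Red points are Lrp2, Mthfs and Mtr, at an unadjusted p under 0.05; 45 of the 50 intervals drawn lie between the dashed 2-fold lines.

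Processes that draw on one-carbon units were also without a gene past the threshold. In purine and thymidylate synthesis all 23 tested genes were bounded within 1.5-fold, with a median of 0.06 and none at an unadjusted p under 0.05. That median was -0.03 without enriched libraries 1 and 3, and the mean of the list before the allowance for labelled sex was 0.0009 on the moderate and -0.0009 on the enriched diet (log2, centred). DNA methylation genes (19 tested, median -0.05) and histone and RNA methyltransferases (22 tested, median -0.06) each had none at an unadjusted p under 0.05, and 18 and 21 of them were bounded within 2-fold. Of 29 imprinted genes, Phlda2, a growth-restraining gene of the placenta, had the lowest p, with 1.79 ± 0.48 CPM on the moderate and 2.48 ± 0.65 CPM on the enriched diet (SD, n = 4) and overlapping libraries (unadjusted p 0.0488, edgeR). Among 39 genes needed for neural tube closure, 38 were bounded within 2-fold and 34 within 1.5-fold. In that list Twist1, a factor of head mesenchyme and neural crest, was higher in estimate by 0.21 ± 0.08 (log2, SE, unadjusted p 0.0204, edgeR).

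Cilia and Hedgehog genes, which the title of the series raises, were as tightly bounded in wild type heads. All 29 genes of the transition zone, BBSome and ciliary membrane and all 25 of the Hedgehog pathway had intervals within 2-fold, as did 31 of 32 intraflagellar transport and motor genes. None passed the test, and 1 of these 86 had an unadjusted p under 0.05, against 2.44% of all genes. This was Dync2h1, the heavy chain of the retrograde ciliary motor, at 89.2, 76.8, 84.6 and 73.1 CPM on the moderate diet and 50.6, 79.8, 48.7 and 68.6 CPM on the enriched diet (unadjusted p 0.0310, edgeR). Its 2 lowest values were in enriched libraries 1 and 3, the libraries low in long transcripts.

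The gene with the smallest p in the whole comparison was Syt7 (synaptotagmin 7, chromosome 19, 10389090 to 10453180, mm10), a calcium sensor of membrane fusion. It stood at 48.4, 30.9, 35.3 and 32.6 CPM on the moderate diet and 21.7, 23.0, 21.1 and 22.9 CPM on the enriched diet. All enriched libraries were below all moderate ones. The log2 fold change was -0.70 ± 0.14 (SE), a fold of 0.499 to 0.761 at the interval's limits, with an unadjusted p of 0.000172 and an adjusted p of 0.967 (edgeR); over 24 alternative settings the estimate ran from -0.77 to -0.57, and the adjusted p passed the threshold in DESeq2's test alone. In the mutants Syt7 read 33.1, 37.3, 30.8 and 35.2 CPM on the moderate diet and 22.4, 28.8, 30.6 and 22.5 CPM on the enriched diet, an estimate of -0.37 (unadjusted p 0.0139, adjusted p 0.442, edgeR). Mutant libraries 1 and 4 of the enriched diet were at the level of the enriched wild type, and libraries 2 and 3 just under the lowest moderate mutant library.

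Ttc9c, a tetratricopeptide repeat gene on the same chromosome (8809075 to 8819333), had a similar pattern over the wild type libraries. It stood at 136.2, 98.2, 101.8 and 102.2 CPM on the moderate diet and 69.3, 77.8, 67.9 and 75.3 CPM on the enriched diet in wild type heads, with a log2 fold change of -0.52 ± 0.14 (unadjusted p 0.00185, adjusted p 0.967, edgeR). In mutants it read 86.6, 122.9, 109.4 and 93.8 CPM against 65.9, 90.8, 97.4 and 71.6 CPM. Again enriched mutant libraries 1 and 4 were the low ones.

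Both genes lie in the first 11 Mb of chromosome 19, a region chosen after its values were seen. There, 15 of 199 genes tested had an unadjusted p under 0.05 (7.54%, against 2.44% of all genes), and the diets did not overlap for 12 genes (6.03%), 7 lower and 5 higher on the enriched diet. Chromosome 19 as a whole had 4.47% of its 470 genes at an unadjusted p under 0.05, and the other autosomes and X between 1.66% and 3.39%. Those lower without overlap included Dpp3, a dipeptidyl peptidase, at 210 to 273 CPM on the moderate and 169 to 204 CPM on the enriched diet, and Eif1ad, at 107 to 140 CPM against 87.4 to 98.96 CPM. Higher without overlap were Mrpl49, a mitochondrial ribosomal protein, at 63.3 to 74.6 CPM against 78.5 to 87.1 CPM, and the adjacent Fau, which encodes ribosomal protein S30, at 7.73 to 15.0 CPM against 16.7 to 21.1 CPM. Counts of Fau are uncertain, since reads can be shared with its processed copies. Of the 20 genes with the smallest p in the 2 directions (10 each), 5 lay in this region and 7 on chromosome 19. The fifth in the region was AI837181, at 37.3 to 49.9 CPM on the moderate and 52.1 to 59.6 CPM on the enriched diet. The region held 199 of the 14514 genes tested, and chromosome 19 held 3.24% of them. Because the region was chosen after its values were seen, these 5 genes add no support for it.

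Slc47a1, a transporter that extrudes organic cations and drugs, was high in some libraries and near 0 in the rest. It had 5, 2, 6 and 5 counts in moderate wild type libraries 1 to 4 and 202, 305, 4 and 222 counts in enriched libraries 1 to 4, or 9.68, 12.3, 0.117 and 6.77 CPM. Of the mutants, 1 enriched library had 218 counts and the other 7 had 2 to 4. All 4 libraries with more than 200 counts were thus on the enriched diet, and 4 of the 8 enriched libraries were as low as the moderate ones. The wild type fold change had an interval of 2.90 to 400.2 (unadjusted p 0.00209, adjusted p 0.967, edgeR). Only the 4 libraries with more than 200 counts reached the 10 counts that the filter asks of at least 4 libraries. The gene was thus tested only because of the libraries where it was high, and its p adds no support to the pattern.

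The other genes with a small p came from several functions. Among the lower ones, Epha4, a guidance receptor patterned along the hindbrain, was at 74.7 to 84.4 CPM on the moderate and 59.6 to 74.99 CPM on the enriched diet, and Nbas, a gene of vesicle transport, at 68.7 to 75.6 CPM against 55.2 to 67.1 CPM. Dlgap2, a scaffold of the postsynaptic density, averaged 1.65 ± 0.18 CPM against 1.09 ± 0.23 CPM, and St8sia6, a sialyltransferase, 1.66 ± 0.19 CPM against 0.898 ± 0.20 CPM (SD, n = 4). For Nbas, Dlgap2 and St8sia6 the diets did not overlap; for Epha4 enriched library 2 reached the moderate range. Higher on the enriched diet were Smagp, a small transmembrane adhesion protein, at 3.50 ± 0.32 CPM against 4.58 ± 0.22 CPM, and Anxa2, a calcium-dependent membrane-binding protein, at 29.8 ± 1.35 CPM against 40.1 ± 5.62 CPM. AI413582, one of the 5 genes with the largest higher estimate without overlap, was at 1.68 ± 0.31 CPM against 2.59 ± 0.46 CPM. Each had an adjusted p of 0.967. In the mutants, 11 of the 20 genes with the smallest p had an estimate of the same sign and 3 an unadjusted p under 0.05, where 10.8% of all genes had one in that comparison.

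**Figure D2:**
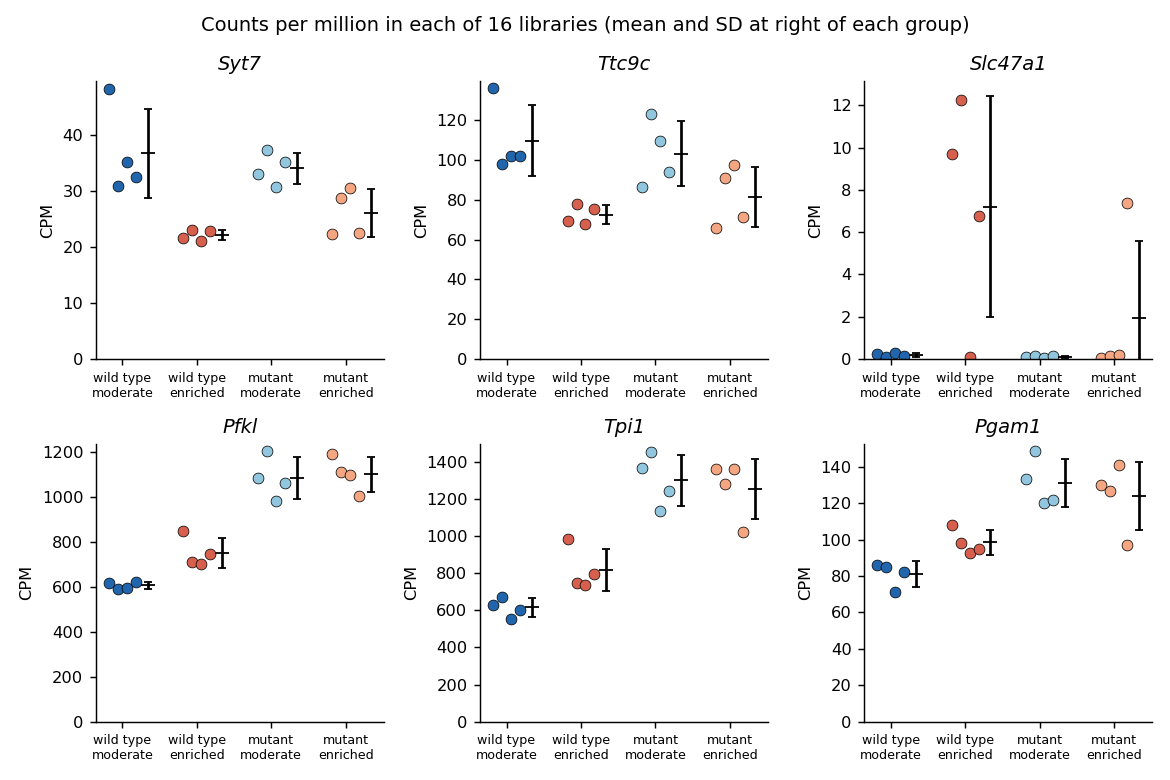
CPM of Syt7, Ttc9c, Slc47a1, Pfkl, Tpi1 and Pgam1 in each of 16 libraries by genotype and diet, replicates 1 to 4 from left to right in each group, with the group mean and SD at the right; axes start at 0. For 5 of the 6 genes all enriched wild type points lie on one side of the moderate ones, and for Slc47a1 3 of 4 do.

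Genes of glycolysis and the hypoxia response were higher in estimate on the enriched diet as a group. Of 29 genes, 25 had a higher estimate, with a median of 0.32 on the log2 scale, or 0.27 with the length correction, against 0.0025 for all genes. None passed the test over all genes. Of the 29, 6 (20.7%) had an unadjusted p under 0.05 with a higher estimate, against 1.16% of all genes, and for 7 (24.1%) all enriched libraries lay above all moderate ones, against 1.47%. The lists, this one included, were chosen with earlier results of these data known. Genes of a list also share the same libraries and are not independent, so these shares are a description and not a test. The 7 were Pfkl, Aldoa, Tpi1, Pgam1 and Ldha, which carry out steps of glycolysis from fructose phosphate to lactate, and P4ha1 and P4ha2, oxygen-dependent hydroxylases of collagen proline.

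Pfkl, the liver-type phosphofructokinase, stood at 617, 591, 597 and 623 CPM on the moderate diet and 848, 713, 704 and 747 CPM on the enriched diet. Enriched library 1 was the highest and the moderate libraries were close to one another. The log2 fold change was 0.32 ± 0.08 (SE), an interval of 1.10-fold to 1.41-fold, with an unadjusted p of 0.00152 and an adjusted p of 0.967 (edgeR). Tpi1, triose phosphate isomerase, read 630, 674, 555 and 602 CPM against 985, 748, 737 and 796 CPM, with an interval of 1.14-fold to 1.62-fold. Pgam1, phosphoglycerate mutase, read 86.2, 85.0, 71.0 and 82.0 CPM against 108, 98.2, 92.4 and 94.97 CPM. For Ldha, lactate dehydrogenase A, values were 2362, 2366, 2100 and 2192 CPM against 3167, 2655, 2662 and 2493 CPM. Fam162a, a mitochondrial protein induced by low oxygen, was not on the list but was among the 10 named for the smallest p in the higher direction. Its values were 80.8 to 93.0 CPM against 102 to 150 CPM.

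Not all genes of the group had higher estimates. Vegfa, the secreted growth factor of vessels, stood at 42.4 to 47.5 CPM on the moderate and 44.9 to 57.7 CPM on the enriched diet. Its estimate was -0.03 after the allowance for labelled sex, a label that the counts contradict in moderate library 2. Estimates for Kdm3a, Hk1 and Bhlhe40 were -0.03, -0.02 and -0.03, and that for Hk2 was 0.02. Bnip3, a mitophagy gene, read 26.8, 39.6, 30.3 and 35.2 CPM against 83.3, 32.5, 36.6 and 59.2 CPM, so its higher mean came from enriched libraries 1 and 4. The mean of the 29 genes, on the log2 scale and centred on the 8 libraries, was -0.17, -0.22, -0.12 and -0.14 in moderate libraries 1 to 4 and 0.37, -0.04, -0.0044 and 0.32 in enriched libraries 1 to 4. All enriched libraries lay above all moderate ones, libraries 1 and 4 by far the most. The median over the list was 0.23 without enriched libraries 1 and 3 and lay between 0.23 and 0.34 under all 24 alternative settings. None of these settings left out enriched libraries 1 and 4 together.

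In the mutants, which are separate libraries, the same list had a median of 0.18, with 23 of 29 estimates higher on the enriched diet. The genes differed: Pfkl, Tpi1, Pgam1 and Ldha had mutant estimates of 0.03, -0.04, -0.06 and -0.17. The interaction had an unadjusted p of 0.0185 for Pfkl, 0.00883 for Tpi1, 0.0104 for Pgam1 and 0.00672 for Ldha, each with an adjusted p of 0.501 (edgeR), so a difference between genotypes was not shown. Counts of Ldha, Pgam1, Tpi1 and Aldoa are uncertain to the extent that reads are shared with processed copies, and Eno1, at 0.234 to 0.458 CPM, was too low for its gene family to be read.

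Because many genes of the group are known targets of the hypoxia-inducible factors, their upstream sequences were searched for the core of the response element, ACGTG on either strand (CACGTG holds it on both strands and counts for each). Sequences are the 250 bases before the RefSeq start in GRCm38.p6, and 26 of the 29 genes had an entry. At the first listed start the letters were found in 14 of the 26 (53.8%), compared with 21.7% of 10893 tested genes and 16.6% of 27025 symbols with an entry. The list was written from genes known to respond to hypoxia, so the share describes the list and not the diet. Of the 7 genes whose diets did not overlap, Ldha, Pgam1, P4ha1 and P4ha2 held the letters, and Pfkl, Tpi1 and Aldoa did not. Shown are Ldha and Pgam1, with the matches in capitals, and P4ha1 as a gene outside glycolysis. Pfkl, the gene of the list with the smallest p, is shown as one without a match. The sequences lie at chr7:46845554-46845803 (+), chr19:41911621-41911870 (+), chr10:59323046-59323295 (+) and chr10:78009808-78010057 (-).
Ldha: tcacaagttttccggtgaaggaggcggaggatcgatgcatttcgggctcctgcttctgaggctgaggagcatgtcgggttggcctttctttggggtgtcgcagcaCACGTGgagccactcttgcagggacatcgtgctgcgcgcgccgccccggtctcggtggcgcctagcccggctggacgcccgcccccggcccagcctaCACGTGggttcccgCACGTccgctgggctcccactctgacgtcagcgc
Pgam1: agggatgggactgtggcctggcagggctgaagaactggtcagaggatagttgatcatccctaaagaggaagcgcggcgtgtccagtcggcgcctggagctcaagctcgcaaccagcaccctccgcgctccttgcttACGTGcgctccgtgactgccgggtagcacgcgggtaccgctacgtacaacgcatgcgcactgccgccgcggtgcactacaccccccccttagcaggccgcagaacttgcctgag
P4ha1: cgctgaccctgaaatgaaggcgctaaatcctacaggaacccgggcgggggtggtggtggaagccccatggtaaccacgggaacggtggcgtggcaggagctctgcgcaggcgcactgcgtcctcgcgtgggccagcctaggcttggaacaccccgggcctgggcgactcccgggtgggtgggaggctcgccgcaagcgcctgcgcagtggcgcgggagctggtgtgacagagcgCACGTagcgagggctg
Pfkl: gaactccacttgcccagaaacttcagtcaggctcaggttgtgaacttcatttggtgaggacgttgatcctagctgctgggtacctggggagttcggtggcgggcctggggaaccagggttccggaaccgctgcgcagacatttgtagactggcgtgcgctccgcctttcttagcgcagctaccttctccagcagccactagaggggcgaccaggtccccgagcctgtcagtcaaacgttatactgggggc

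A match describes the letters and no binding, and its absence says only that this window does not hold it.

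Genes of protein synthesis and respiration leaned the same way, but with the libraries low in long transcripts. Ribosomal protein genes had higher estimates for 26 of 28 (median 0.13) and oxidative phosphorylation genes for 22 of 24 (median 0.13); all 28 and all 24 were bounded within 2-fold. The mean of the ribosomal genes was 0.13 in both enriched libraries 1 and 3 and -0.04 and -0.0077 in enriched libraries 2 and 4, against -0.08 to -0.03 on the moderate diet. These are short transcripts, with a median exon length of 2200.5 bases. Without enriched libraries 1 and 3 the medians were 0.0018 for ribosomal and -0.05 for oxidative phosphorylation genes, and with the length correction 0.03 and 0.06. Rpl19, of the large ribosomal subunit, was the 1 ribosomal gene with an unadjusted p under 0.05 (0.0130, edgeR), at 63.7 to 76.0 CPM on the moderate and 79.2 to 88.5 CPM on the enriched diet.

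**Figure D3:**
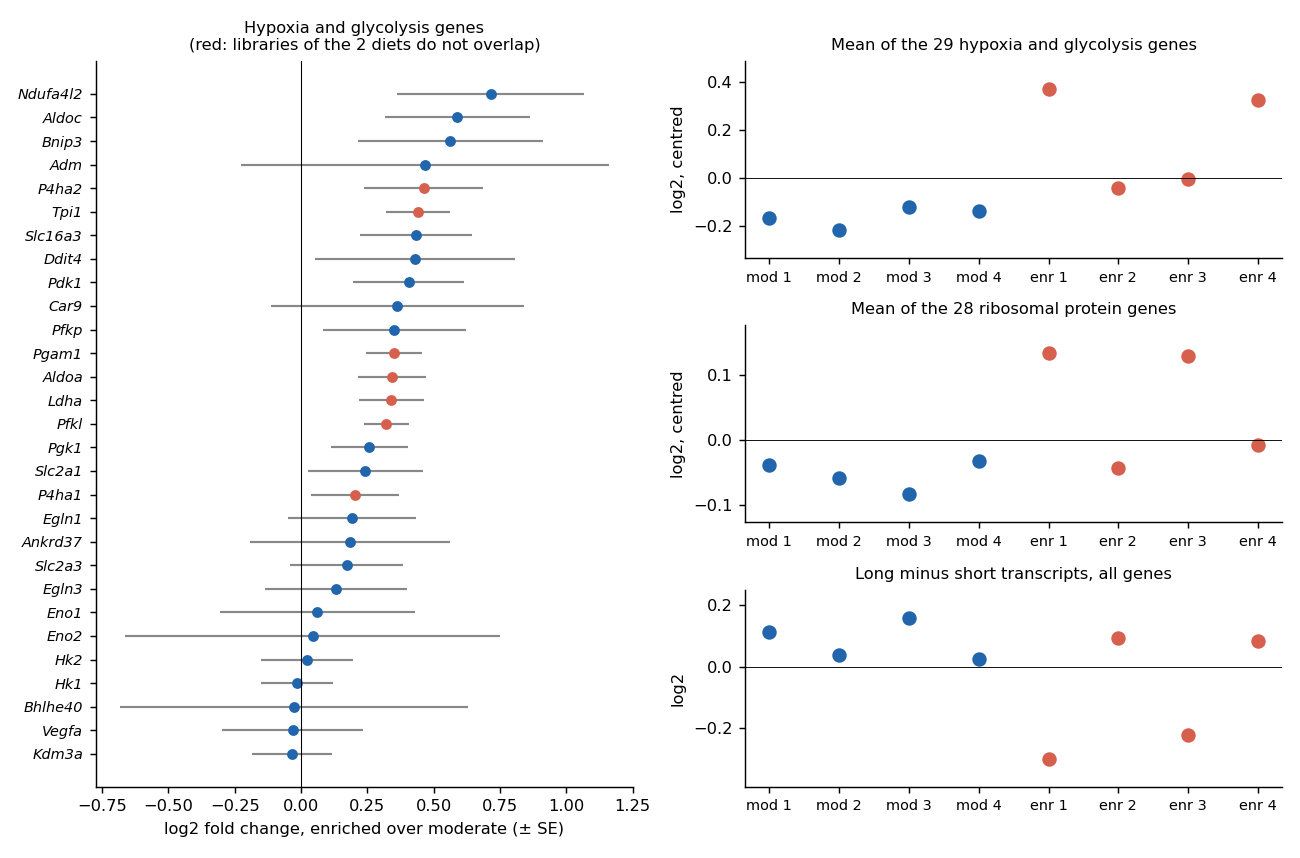
Left, log2 fold change (± SE) of the 29 hypoxia and glycolysis genes, with the 7 whose diets do not overlap in red. Right, for each wild type library (mod, moderate; enr, enriched), the centred mean log2 CPM of that list, that of 28 ribosomal protein genes, and the long minus short transcript difference, which is -0.30 in enriched library 1 and -0.22 in enriched library 3.

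The other cell types and tissues of the head showed no gene past the threshold. Blood genes were lower in estimate for 16 of 16, with a median of -0.28, none at an unadjusted p under 0.05 and no gene without overlap; the median was -0.01 without moderate library 2, whose blood level was the highest, and -0.81 without enriched libraries 1 and 3. Endothelial genes were higher in estimate for 15 of 20 (median 0.11), and 3 lay wholly higher on the enriched diet, where 1.47% of all genes did, among them Egfl7, a secreted vessel protein, at 19.3 to 29.1 CPM against 30.5 to 36.2 CPM (unadjusted p 0.00881, edgeR). Yolk sac and visceral endoderm genes had a median of 0.64 with wide error. Their transcripts were uneven in both groups: Ttr was at 1.297, 0.532, 0 and 0.0498 CPM on the moderate diet and 1.05, 4.18, 0.0877 and 0.0915 CPM on the enriched diet. Without enriched library 2 that median was 0.05.

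Regional genes of the brain and face were likewise without a call. Estimates of early neuronal and proneural genes were lower for 16 of 21 (median -0.15), but the median was 0.03 with wild type libraries alone and no sex term, and in single libraries their mean ranged from -0.31 to 0.37 on the enriched diet alone. In neural crest 20 of 20 genes were bounded within 2-fold, with 11 higher and 9 lower estimates and a median of 0.01. At an unadjusted p under 0.05 there were 1 higher (Twist1, given above) and 1 lower (Pax7), where 1.16% and 1.27% of all genes were. Pax7, a factor of dorsal neural tube and crest, read 22.9 to 27.7 CPM on the moderate and 18.9 to 23.1 CPM on the enriched diet (unadjusted p 0.0256, edgeR). Of 18 genes of the retinoic acid pathway, 11 had higher and 7 lower estimates, with a median of 0.02. The 1 gene at an unadjusted p under 0.05 was Aldh1a3, lower, where 1.27% of all genes were. Aldh1a3, which makes retinoic acid in the eye and face, stood at 78.0, 98.7, 95.3 and 84.2 CPM against 68.0, 71.7, 79.8 and 72.0 CPM (unadjusted p 0.00935, edgeR). Cyp26a1, of the same list, was higher in estimate by 0.39 (log2, unadjusted p 0.0754, edgeR). Forebrain and midbrain genes had a median of -0.03 with 21 of 22 bounded within 2-fold. Genes of S phase and of mitosis had medians of 0.04 and 0.01, with 28 of 28 and 20 of 21 bounded within 2-fold, and those of cholesterol synthesis a median of 0.02 with 24 of 24.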

How the data were processed

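RNA sequencing counts of 16 libraries were used. The deposited files hold raw, unscaled counts for 24421 gene symbols in each library. Per the submitters' processing notes, the authors used FastQC 0.11.5, TopHat2 2.1.1, SAMtools 1.8, HTSeq 0.9.1, DESeq2 1.22.2 and the build mm10. No source used here gives the counting mode or annotation. The TruSeq version 2 kit named in the labels keeps no strand, so overlapping genes cannot be separated.

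Reads on no annotated feature (13.7 to 17.0%) and the other summary lines were left out. The 14514 genes reaching 10 counts in 4 or more libraries were fitted with edgeR 4.0.16 in R 4.3.3, with TMM scaling, group and labelled sex; p-values were Benjamini-Hochberg adjusted over all genes. Intervals are the estimate plus or minus the t quantile times the quasi-likelihood standard error. The fit was tested on simulated data. Coordinates and exon lengths come from GENCODE vM21 by symbol, matching 14010 of the genes tested. Alternatives included limma 3.58.1 and DESeq2 1.42.0.

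Named genes are Ift88, the 10 with the smallest p in each direction with a mean of at least 1 CPM, the 5 in each direction with the largest change without overlap, all tested folate and one-carbon genes, and 2 of each other list; the choices by p or size pass over genes on X and Y and predicted genes; others are named as examples. Some genes within these rules are not reported here. The comparison, lists and tests were chosen with earlier results of these data known.

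Same-numbered libraries of the diets deviated from their group means with correlations of -0.09, -0.33, -0.14 and 0.02, so no pairing by replicate number was seen. These correlations also carry differences such as sex, so they cannot show whether same-numbered libraries shared a preparation.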

Additional observations from a re-analysis of the deposited data

Results flagged for a closer look

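Of 230 sets of 4 libraries examined (79 genes, 35 list means and the totals, in each diet), 11 (4.78%) held a library far from the other 3; chance flags about 1 in 20. Enriched library 4 was the one apart for 4 of them. It was the lowest for the transporter Abcg2 (50.6 CPM) and for Fpgs (44.9 CPM), Atic (295 CPM) and Gart (331 CPM), 3 enzymes of folate and purine metabolism. Of the 79 genes examined, 52 were the tested folate and one-carbon genes, so the shared function of these 4 was largely set by that choice. Whether enriched library 4 stood apart in folate genes more than in others was not tested. Moderate library 2 was lowest for Ift88 (9.30 CPM), and moderate library 1 highest for Ttc9c (136 CPM). The remaining gene values were Rab11fip2 in moderate library 4 (21.7 CPM, lowest), the mitochondrial enzyme Mthfd2l in moderate library 3 (20.7 CPM, lowest) and Ahcyl2 in enriched library 2 (55.9 CPM, highest). Moderate library 3 was lowest in the mean of S phase and replication genes (-0.0449, log2, centred), and moderate library 4 had the highest total of assigned counts (39744994).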

How the results depend on the processing

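The count of genes past the threshold was 0 under all settings tried except DESeq2's Wald test, which gave 1 (Syt7); the interaction gave 0 under each. With the replicate block, which the numbers do not justify as a pairing, edgeR called 0 genes and 12963 were bounded within 2-fold, against 12910. Leaving out 1 wild type library at a time bounded 12073 to 12820 genes, and a 99% interval 11949. Genes at an unadjusted p under 0.05, 354 in the report, were 208 without moderate library 1, 141, 1295, 206 and 636 without enriched library 1, 2, 3 or 4, and 111 without enriched libraries 1 and 3; the 8 wild type libraries alone gave 210, 802 with no sex term, and 630 with no sex term and the length correction. For the interaction this number ran from 287 to 2204, against 1401. Leaving out 1 library, which makes separation easier, gave 283 to 772 genes wholly higher and 223 to 1009 wholly lower on the enriched diet, against 213 and 153; with the length correction these were 164 and 144. Of 3252 estimates of 136 named genes under the alternatives, 41 were opposite in sign and moved by more than the standard error, and 1 passed the threshold. Length corrections and leaving out enriched libraries 1 and 3 together were chosen after seeing the data. Depth limits genes below 1 CPM, of which 29.9% were bounded within 2-fold.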
